A study of Mus musculus with 6 samples.

Results

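The genes described here encode the NADPH oxidases of the mouse colon, the proteins that mature or assemble them, and inducible nitric oxide synthase. They were chosen by name, as every probe set whose only gene symbol in the platform annotation was Duox2, Duoxa1, Duoxa2, Nox1, Nox4, Noxo1, Noxa1, Nos2, Cyba or Cybb. Of these 10 genes, 7 had at least 1 such probe set, which gave 10 probe sets of the 45037 fitted. Duox2, Nox1 and Noxa1 had none and were not analysed here.

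Colon RNA of 3 HDAC1/2 deficient and 3 control mice, aged 4 months, was measured on Affymetrix whole-genome expression arrays, 3 per group, and the source labels number 1 mouse for each array. In HDAC1/2 deficient mice, floxed Hdac1 and Hdac2, which encode related histone deacetylases, were deleted by a villin-Cre transgene, which is expressed in the epithelium of the intestine and leaves the other cells of the gut wall with both genes. Control mice are labelled as wild type, and whether they carried floxed alleles is not given in the sources used here. Samples were labelled as epithelium, but by the extraction protocol RNA came from the colon as a whole, and smooth muscle and immune cell genes were measured on every array. Mice of both groups were untreated and fed a normal diet. Every deficient array carried both Xist, an RNA of females, at log2 signals of 12.01, 11.99 and 12.06, and the Y-linked Eif2s3y, at 8.32, 8.49 and 8.22, against 12.88, 12.85 and 12.81 for Xist and 3.84, 4.31 and 4.11 for Eif2s3y in control colon. A single mouse would not usually show both at such signals. The sources used here do not say whether RNA of several mice was pooled or mixed, and this was not tested, so n counts arrays, and the SDs and p-values measure the spread between these arrays.

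NADPH oxidases move electrons from NADPH across a membrane to oxygen and so make superoxide or hydrogen peroxide. In phagocytes the catalytic subunit gp91phox (Cybb, also called Nox2) pairs with p22phox (Cyba) and is switched on by cytosolic subunits during microbial killing. In the colon epithelium Nox1 and Duox2 release reactive oxygen towards the lumen, Duox2 needs the maturation factor Duoxa2 to leave the endoplasmic reticulum, and Nos2 makes nitric oxide from arginine in inflamed mucosa. The loss of function of several of these genes is linked to inflammatory bowel disease in humans.

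Of the 7 measured genes, Duoxa2, Cybb and Cyba rose in HDAC1/2 deficient colon, by 4.94, 2.66 and 2.04-fold. Noxo1 fell slightly, and Duoxa1, Nox4 and Nos2 did not pass the test. By probe set, 5 of 10 were higher and 1 was lower at an adjusted p under 0.05 by limma, a linear model with variances shared across probe sets, against 18.8% higher and 21.0% lower over all probe sets. Of the 10, 4 rose more than 2-fold, against 1.56% of all probe sets, and among the 4 are Cybb 1422978_at and 1436778_at, which read the same transcripts. The members were chosen with earlier results of these data known, so such shares are descriptions and not tests. Counted once per gene by the brightest probe set, 3 of 7 were higher and 1 was lower, against 21.9% and 28.4% of the 18193 named genes. The median log2 fold change was 0.49 over the 10 probe sets and 0.01 over the 7 genes, beside -0.007 over all probe sets and -0.022 over all genes.

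The promoters of the 4 genes that passed the test, and of Duoxa1, which lies beside Duoxa2 and did not, were read as the 250 bases before the gene start (RefSeq, GRCm38.p6, each read in the direction of transcription). They were searched on both strands for the interferon-gamma activated site of Stat factors (TTCNNNGAA), the core of the interferon-stimulated response element (a pair of GAAA runs separated by any 2 bases), the AP-1 site (TGANTCA), the Cdx site of intestinal homeobox factors (TTTATNG) and the NF-kappaB consensus. Capitals mark matches.
Duoxa2, chr2:122298650-122298899, plus strand: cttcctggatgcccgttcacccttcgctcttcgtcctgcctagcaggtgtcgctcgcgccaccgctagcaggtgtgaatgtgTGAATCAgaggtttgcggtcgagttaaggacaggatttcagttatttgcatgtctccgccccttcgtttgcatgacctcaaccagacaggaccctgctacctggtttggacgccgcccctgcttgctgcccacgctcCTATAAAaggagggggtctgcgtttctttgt
Duoxa1, chr2:122313731-122313980, minus strand: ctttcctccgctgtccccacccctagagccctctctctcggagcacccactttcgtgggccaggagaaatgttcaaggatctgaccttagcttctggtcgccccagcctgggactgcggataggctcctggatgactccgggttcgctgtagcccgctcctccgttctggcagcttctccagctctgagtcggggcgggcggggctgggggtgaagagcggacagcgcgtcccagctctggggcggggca
Cybb, chrX:9469325-9469574, minus strand: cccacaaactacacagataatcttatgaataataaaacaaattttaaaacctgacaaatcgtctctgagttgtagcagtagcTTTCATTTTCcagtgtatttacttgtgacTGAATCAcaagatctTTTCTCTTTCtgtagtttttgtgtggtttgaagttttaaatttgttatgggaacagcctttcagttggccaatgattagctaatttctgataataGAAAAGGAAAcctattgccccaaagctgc
Cyba, chr8:122432941-122433190, minus strand: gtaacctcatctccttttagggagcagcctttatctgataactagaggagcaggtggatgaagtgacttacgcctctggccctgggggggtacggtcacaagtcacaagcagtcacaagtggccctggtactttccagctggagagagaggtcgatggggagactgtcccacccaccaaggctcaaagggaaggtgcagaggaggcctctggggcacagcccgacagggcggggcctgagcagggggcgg
Noxo1, chr17:24695984-24696233, plus strand: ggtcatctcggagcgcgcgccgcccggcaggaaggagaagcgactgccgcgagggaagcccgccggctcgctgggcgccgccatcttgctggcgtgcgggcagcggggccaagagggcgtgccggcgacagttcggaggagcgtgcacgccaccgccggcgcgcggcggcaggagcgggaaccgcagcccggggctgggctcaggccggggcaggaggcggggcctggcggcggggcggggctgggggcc

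The Duoxa2 window held an AP-1 match 162 to 168 bases before the start and a Cdx match on the opposite strand at 25 to 31 bases, whose letters overlap a TATA box sequence (TATAAA). The Cybb window held the interferon response core 3 times, at 159 to 168, 115 to 124 and 20 to 29 bases before the start, and an AP-1 match at 133 to 139 bases. No match was found in the windows of Cyba, Noxo1 and Duoxa1, nor in that of Duox2. Among the members with no rise or no probe set, Nox4 held an interferon-gamma activated site at 214 to 222 bases, Noxa1 an NF-kappaB match at 240 to 249 bases, and Nox1 a Cdx match at 174 to 180 and an NF-kappaB match at 82 to 91 bases. Of all 32851 windows, 7.02% held the interferon-gamma activated site, 2.98% the interferon response core, 6.75% the AP-1 site, 9.81% the Cdx site and 5% the NF-kappaB consensus. Matches are descriptions of these letters, and binding was not measured. The base composition of the windows also differed, with 34.0% G and C in Cybb, 56.4% in Duoxa2, 60.0% in Cyba, 65.6% in Duoxa1 and 80.0% in Noxo1, against a median of 52.4% over all windows.

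Among the catalytic subunits, Cybb rose and Nox4 did not pass the test. Cybb, which carries the haem and flavin groups of the phagocyte oxidase, had log2 signals of 9.60, 9.71 and 9.56 in deficient colon and 8.32, 8.12 and 8.19 in control colon on its brightest probe set, 1436778_at. All 3 deficient arrays lay above all control arrays, a gap of more than 1 log2 unit between the closest arrays of the groups. The log2 fold change was 1.41 (standard error 0.067, 95% confidence interval 1.25 to 1.57, limma adjusted p = 3.69e-06), which placed Cybb at rank 218 of 18193 genes from the highest change. In RNA of whole colon, more cells of a type and more RNA per cell cannot be told apart.

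The other Cybb probe sets also rose. Probe set 1422978_at had log2 signals of 7.24, 7.30 and 7.31 in deficient colon, against 6.49, 6.05 and 6.10 in control colon, and changed by 1.07 (standard error 0.11, limma adjusted p = 0.000153). Its control arrays were the most spread of any member in that group (SD 0.24), because control replicate 1 lay above the other two. Probe set 1436779_at had 7.25, 7.21 and 7.13 in deficient colon and 6.37, 6.28 and 6.12 in control colon, a change of 0.94 (standard error 0.07, limma adjusted p = 3.25e-05). In no Cybb probe set did the groups overlap. The 3 probe sets read the same transcripts on the same arrays and are not independent measurements.

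Nox4, a constitutively active oxidase that releases mainly hydrogen peroxide and is best known in kidney and mesenchymal cells, gave dim signals. Probe set 1419161_a_at had log2 signals of 3.93, 4.12 and 4.06 in deficient colon and 4.01, 3.94 and 4.0 in control colon, and 1451827_a_at had 4.02, 4.0 and 4.06 in deficient colon and 4.21, 3.98 and 4.11 in control colon. The groups overlapped in both. The log2 fold changes were 0.05 (95% confidence interval -0.09 to 0.18, limma adjusted p = 0.565) and -0.08 (-0.22 to 0.07, adjusted p = 0.388). Both probe sets lay under the 40th percentile of mean signal, a log2 signal of 6.26, where such arrays compress differences.

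**Figure D1:**
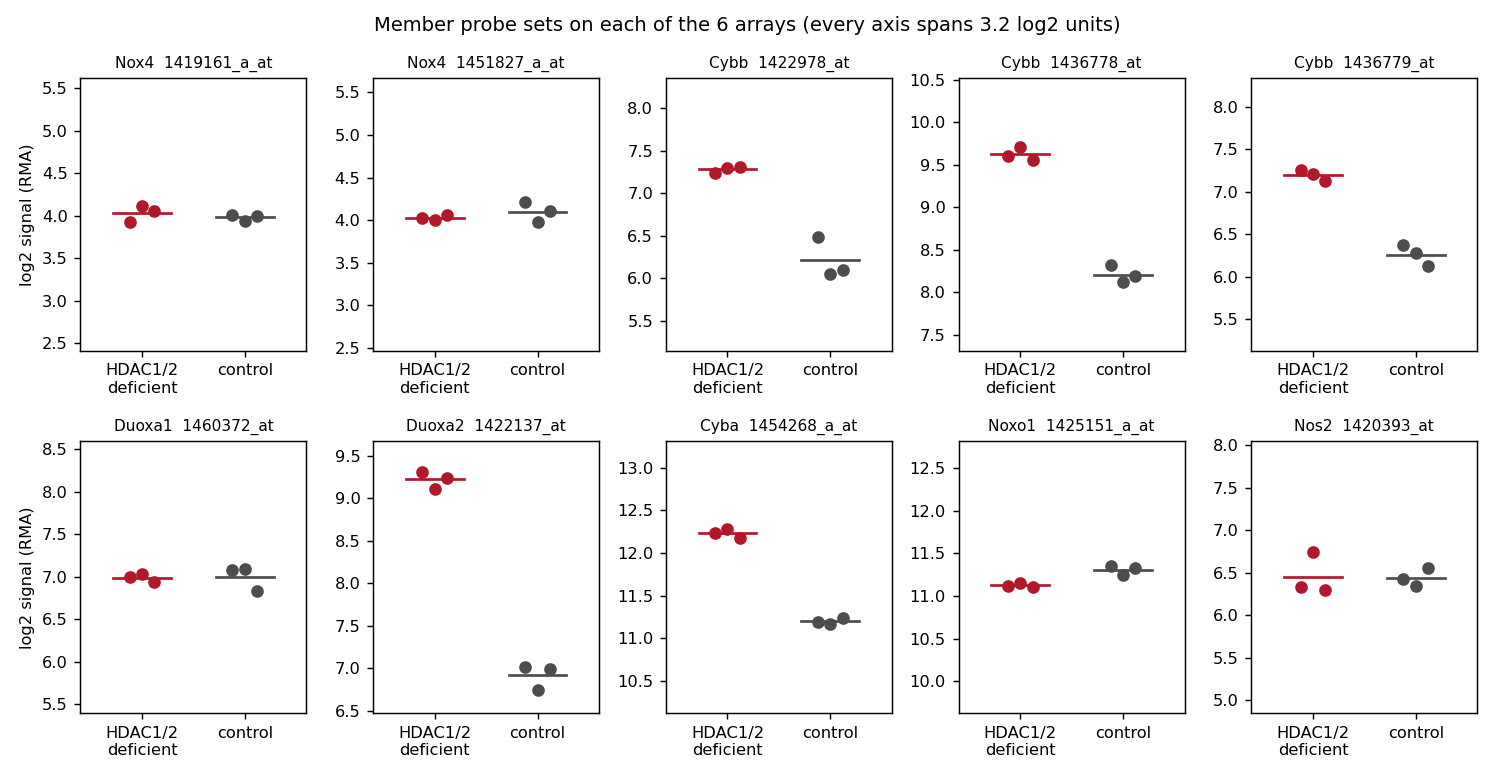
Log2 signal (RMA) of each of the 10 member probe sets on each array, with HDAC1/2 deficient colon in red on the left and control colon in grey on the right, 3 arrays each, and lines at the group means. Every axis spans the same number of log2 units, so gaps can be read across panels: Duoxa2, the 3 Cybb probe sets and Cyba were separated upwards, Noxo1 was separated downwards by a small gap, and Nox4, Duoxa1 and Nos2 overlapped.

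The maturation factors of the Duox oxidases parted. Duoxa2 had log2 signals of 9.31, 9.11 and 9.24 in deficient colon (mean 9.22 ± 0.099, SD, n = 3) and 7.01, 6.75 and 6.99 in control colon (6.92 ± 0.15, n = 3). Every deficient array lay more than 2 log2 units above every control array. This was the largest change of the 7 genes, at 2.31 on the log2 scale or 4.94-fold (standard error 0.083, 95% confidence interval 2.11 to 2.50, limma adjusted p = 1.11e-06), and rank 82 of 18193 genes from the highest.

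Duoxa1, which matures the related oxidase Duox1, had log2 signals of 7.0, 7.03 and 6.94 in deficient colon and 7.08, 7.09 and 6.83 in control colon. The deficient values all fell inside the control range. The log2 fold change was -0.01 (standard error 0.075, 95% confidence interval -0.19 to 0.16, limma adjusted p = 0.907). Duoxa2 and Duoxa1 are neighbours on chromosome 2, where Duox2, Duoxa2, Duoxa1 and Duox1 follow each other in this order. Duox2 and Duoxa2 are read away from each other from starts 673 bases apart, Duoxa1 and Duox1 likewise from starts 1942 bases apart, and 14830 bases separate the starts of Duoxa2 and Duoxa1. Measured within each array and set to the control mean of each gene, Duoxa2 minus Duoxa1 was 2.39, 2.17 and 2.39 in deficient colon, against 0.02, -0.26 and 0.24 in control colon. Duox1 itself was dim, at 5.92, 5.83 and 5.98 in deficient colon and 5.87, 5.92 and 5.66 in control colon (log2 fold change 0.09, limma adjusted p = 0.398). The locus thus gave 1 gene that rose and 2 that did not pass the test, while the oxidase that Duoxa2 serves, Duox2, was not analysed here.

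Cyba, the membrane partner that stabilizes Nox1, Nox2, Nox3 and Nox4, rose with little spread between arrays. Its log2 signals were 12.23, 12.28 and 12.18 in deficient colon (mean 12.23 ± 0.051, SD, n = 3) and 11.19, 11.17 and 11.24 in control colon (11.20 ± 0.036, n = 3). The groups were separated by nearly 1 log2 unit. The log2 fold change was 1.03 (standard error 0.046, 95% confidence interval 0.92 to 1.14, limma adjusted p = 2.78e-06), rank 384 of 18193 genes. Set to the control means, the brightest Cybb probe set minus Cyba was 0.36, 0.41 and 0.37 in deficient colon, against 0.12, -0.07 and -0.06 in control colon. The other Cybb probe sets, at 1.07 and 0.94, changed by about as much as Cyba, so the order of the partners depended on the Cybb probe set.

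Noxo1, the organizer that holds the Nox1 complex together at the membrane of colon epithelial cells, was the member that fell. It had log2 signals of 11.12, 11.15 and 11.11 in deficient colon and 11.35, 11.25 and 11.33 in control colon. The groups did not overlap, but the closest arrays differed by only about 0.10. The log2 fold change was -0.18 (0.881-fold, standard error 0.044, 95% confidence interval -0.29 to -0.08, limma adjusted p = 0.0125). A change of this size was common on these arrays, and Noxo1 stood at rank 4863 of 18193 genes from the lowest change.

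Nos2, the inducible nitric oxide synthase of macrophages and inflamed epithelium, had log2 signals of 6.33, 6.74 and 6.29 in deficient colon and 6.43, 6.34 and 6.55 in control colon. Deficient replicate 2 was the highest of the 6 arrays and the other deficient arrays were the lowest. The log2 fold change was 0.01 (standard error 0.12, 95% confidence interval -0.27 to 0.29, limma adjusted p = 0.954). Without deficient replicate 2 the value was -0.13.

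All 3 deficient arrays lay above all control arrays in 5 of the 10 probe sets, against 23.8% of all probe sets, and below them in 1, against 26.2%. With 3 arrays in each group the smallest two-sided p that an exact permutation test can give is 0.10, and it was reached by the 6 probe sets without overlap. For the others the exact permutation p was 0.50 and 0.40 for the Nox4 probe sets and 1.00 for Duoxa1 and Nos2. No alternative setting changed the direction of a member that passed the test. The call of 1 Cybb probe set, 1422978_at, was lost with the methods' t-test after Benjamini-Hochberg adjustment (adjusted p = 0.0518).

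**Figure D2:**
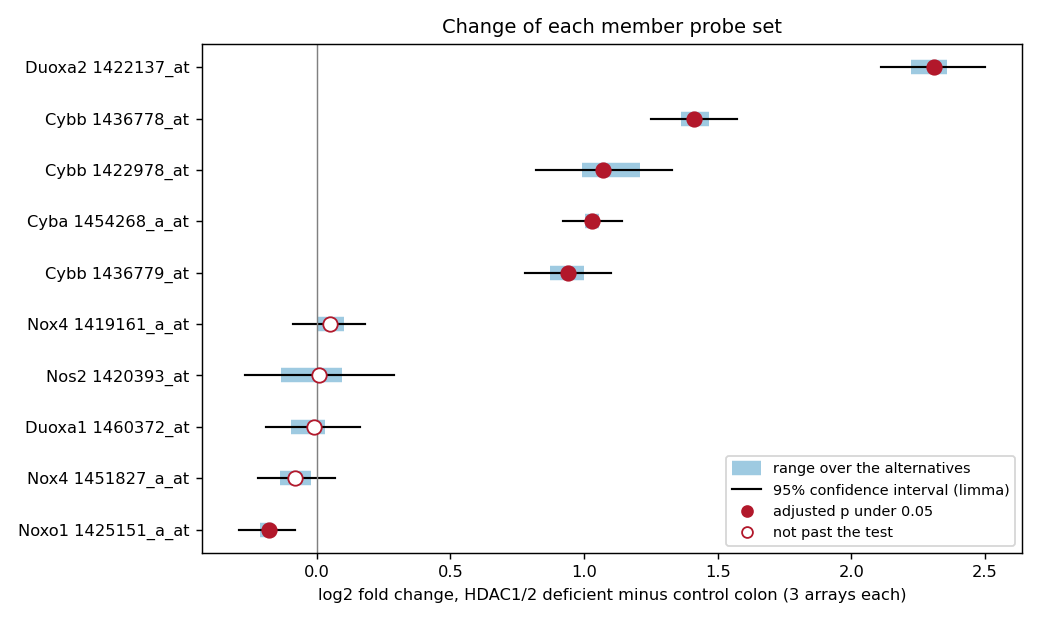
Log2 fold change of each member probe set, HDAC1/2 deficient minus control colon with 3 arrays each, with the 95% confidence interval from limma (line) and the range over all alternative settings (blue band). Filled points passed an adjusted p of 0.05: Duoxa2 at 2.31, Cybb at 0.94 to 1.41, Cyba at 1.03 and Noxo1 at -0.18. The intervals of the open points include 0.

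The genes whose 6 values ran closest to those of Duoxa2, after each was set to its own control mean, were Gp2, a glycoprotein of pancreatic zymogen granules and of M cells, Steap4, a metalloreductase, and H2-DMa, which loads peptides on class II molecules. Their root mean square differences from Duoxa2 over the 6 arrays were 0.090, 0.095 and 0.098 log2 units, against a median of 1.652 over all other genes, and their log2 fold changes were 2.32, 2.31 and 2.22. The genes closest to Noxo1 were Ndst2, an enzyme of heparan sulphate synthesis, Dpep1, a membrane dipeptidase, and Ciz1, a nuclear protein of DNA replication. Their differences were 0.012, 0.014 and 0.016, against a median of 0.180. Likeness here rests mostly on the size of the change between the groups.

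The other genes of these pathways were counted from lists of 88 genes, of which 76 were measured. Of the 76, 32 were higher and 19 were lower in deficient colon and 25 did not pass the test, with a median log2 fold change of 0.02. Over all named genes, 21.9% were higher and 28.4% lower.

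The cytosolic partners of the phagocyte oxidase moved in the direction of Cybb and Cyba in 3 of 6 measured genes, with 1 lower, 2 not past the test and a list median of 0.39. Rac2, the Rac GTPase of blood cells, had log2 signals of 9.51, 9.62 and 9.50 in deficient colon and 7.83, 7.77 and 7.90 in control colon, a change of 1.71 (limma adjusted p = 5.56e-07). A second Rac2 probe set had a change of 0.01 and did not pass. Ncf4 (p40phox), which binds lipids of the phagosome, changed by 1.07 (mean 8.86 in deficient colon, 7.79 in control colon, adjusted p = 1.04e-05). Ncf1 (p47phox), the organizer of the phagocyte complex and the counterpart of Noxo1, changed by 0.80 (8.29 in deficient colon, 7.49 in control colon, adjusted p = 1.77e-05), and its 3 probe sets rose by 0.20 to 0.80. Thus the organizer of the phagocyte oxidase was higher where that of the epithelial oxidase was slightly lower. Rap1a, a small GTPase found with the oxidase of neutrophils, fell by 0.52 on the log2 scale (adjusted p = 0.000124), Rac1, which is expressed in most cells, had a change of -0.08 and Cybc1, a chaperone of gp91phox and p22phox, one of -0.02.

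Macrophage and monocyte markers moved with these genes, while granulocyte markers did so only in part. Of 15 measured macrophage and monocyte markers, 11 were higher, none was lower and 4 did not pass the test, with a median of 0.75. Among them C1qa and C1qb, complement genes of tissue macrophages, changed by 1.33 and 1.19, and Csf1r and Fcgr3, a growth factor receptor and an Fc receptor, by 1.12 and 1.10. The summed signal of the list was 14.28 to 14.30 on the log2 scale in deficient colon and 13.60 to 13.65 in control colon, and its only dim member was Itgam. Of 11 neutrophil markers, 5 were higher, 1 was lower and 5 did not pass the test, with a median of 0.17. Their summed signal was 11.23 to 11.26 in deficient colon and 9.89 to 9.97 in control colon. That sum was led by the calprotectin subunits S100a8 and S100a9, with changes of 4.19 and 2.17, while Ltf and Csf3r changed by 0.53 and 0.47 and Cxcr2, Mpo and Mmp8 were dim. Elane was lower, at -0.17, and Ngp and Camp did not pass, at -0.05 and 0.00. The mean log2 signals of Elane, Ngp and Camp in control colon were 6.77, 6.62 and 6.71, above the dim limit of 6.26 but near it. Whether these genes follow neutrophil number was not tested. Among 6 eosinophil markers 3 were higher, with a median of 0.13, Siglecf at 1.74 and 5 of the 6 dim. Their sum was 8.45 to 8.51 in deficient colon and 7.70 to 7.73 in control colon. Cybb, at 1.41 on its brightest probe set, lay above the highest change of the 15 macrophage markers, 1.33. Its other probe sets, at 1.07 and 0.94, lay between the median and the maximum of these markers, as did Cyba at 1.03. The maxima of the other leukocyte lists lay above 1.41, at 4.19 (neutrophil), 1.74 (eosinophil), 1.81 (B and plasma cell) and 2.55 (T and NK cell). Their medians lay below it, at 0.17, 0.13, 1.02 and 0.79. The part of cell number in the changes of Cybb and Cyba was not tested.

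The epithelial side was sampled with other lists. The 18 colon epithelium markers had a summed signal of 18.01 to 18.02 in both groups and a median change of -0.00, with 5 higher, 6 lower and 7 not past the test, and none was dim. That sum is led by its brightest genes, some near 14.85, the highest value on the arrays, and whether it follows epithelial content was not tested. Among them Krt20 and Car1, genes of mature colonocytes, changed by 0.67 and 0.57, Cdx2, a homeobox factor of the gut, by 0.56, and Guca2a, which encodes guanylin, by -0.56. All 9 smooth muscle markers were lower, with a median of -0.51, among them Des at -0.69, Synpo2 at -0.62, Smtn at -0.60 and Myh11 at -0.58, and a sum of 15.72 to 15.77 in deficient colon and 16.11 to 16.12 in control colon. Of 8 fibroblast markers 3 were higher and 4 lower, with Lum at -0.89, Pdgfrb at 0.74, Dpt at -0.44 and Col1a1 at -0.37, and sums of 14.65 to 14.68 in deficient colon and 14.75 to 14.78 in control colon.

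Other oxidases and synthases changed little. Nos3, the endothelial nitric oxide synthase, fell by 0.17 on the log2 scale (limma adjusted p = 0.0114) and Nos1, the neuronal form, had a change of 0.04 on its brightest probe set (adjusted p = 0.63), while 1 of its 4 probe sets was lower at -0.33. Of 4 haem peroxidases, which use hydrogen peroxide, Lpo, lactoperoxidase, fell by 0.26 (mean 12.22 in deficient colon, 12.48 in control colon, adjusted p = 0.00195). Pxdn, Mpo and Epx had changes of -0.05, -0.02 and -0.01, and the granulocyte enzymes Mpo and Epx were dim.

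Of 15 genes that remove superoxide and hydrogen peroxide, 7 were higher and 2 lower, with a median of 0.09. The largest rise was that of Gpx2, the glutathione peroxidase of the gut epithelium, with log2 signals of 13.66, 13.70 and 13.66 in deficient colon and 13.16, 13.12 and 13.17 in control colon (0.52, limma adjusted p = 3.84e-05). Gpx4, which reduces lipid peroxides, changed by 0.43, Sod3, the extracellular superoxide dismutase, by 0.41 and Txnrd1, a thioredoxin reductase, by 0.36. The second Sod3 probe set had a change of -0.06. No gene of this list changed 2-fold in either direction.

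Several genes of arginine use, methylarginine breakdown and cofactor synthesis changed more than 2-fold in RNA of whole colon. The change of Nos2, read by 1 probe set near the dim range, did not pass the test. Whether these genes and Nos2 are expressed in the same cells was not tested. Arg2, the mitochondrial arginase, which competes with Nos2 for arginine, had log2 signals of 6.09, 6.37 and 6.18 in deficient colon and 8.83, 8.70 and 8.81 in control colon, and fell by 2.56 on the log2 scale (0.169-fold, limma adjusted p = 4.44e-07). Arg1, the cytosolic arginase, had 5.75, 5.90 and 6.23 in deficient colon and 7.57, 7.51 and 7.84 in control colon and fell by 1.68 (adjusted p = 4.28e-05). Both arginases were lower on every deficient array. Ddah1, which breaks down the methylarginines that inhibit nitric oxide synthases, had 11.81, 11.86 and 11.81 in deficient colon and 10.32, 10.27 and 10.39 in control colon and rose by 1.50 (adjusted p = 5.72e-07), with all 5 of its probe sets higher. Slc7a7, an arginine transporter, fell by 0.64, while Slc7a1, another, rose by 0.31 on its brightest probe set (limma adjusted p = 0.00128). Arginine transport was not measured. Over the 9 measured genes of the arginine list, 4 were higher and 3 lower.

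In the synthesis of tetrahydrobiopterin, the cofactor of nitric oxide synthases and of aromatic amino acid hydroxylases, the first and rate-limiting enzyme Gch1 rose and the following enzymes were lower. Gch1 had log2 signals of 11.19, 11.25 and 11.20 in deficient colon and 9.34, 9.28 and 9.32 in control colon, a change of 1.90 or 3.74-fold (limma adjusted p = 1.06e-07), and its 2 probe sets rose by 1.36 and 1.90. Pts and Spr, which complete the synthesis, fell by 0.54 and 0.30, and Gchfr, the feedback regulator of Gch1, fell by 0.42 (adjusted p = 0.00201). The second Pts probe set had a change of 0.01. Of the 5 measured genes, 1 was higher, 3 were lower and 1 did not pass.

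**Figure D3:**
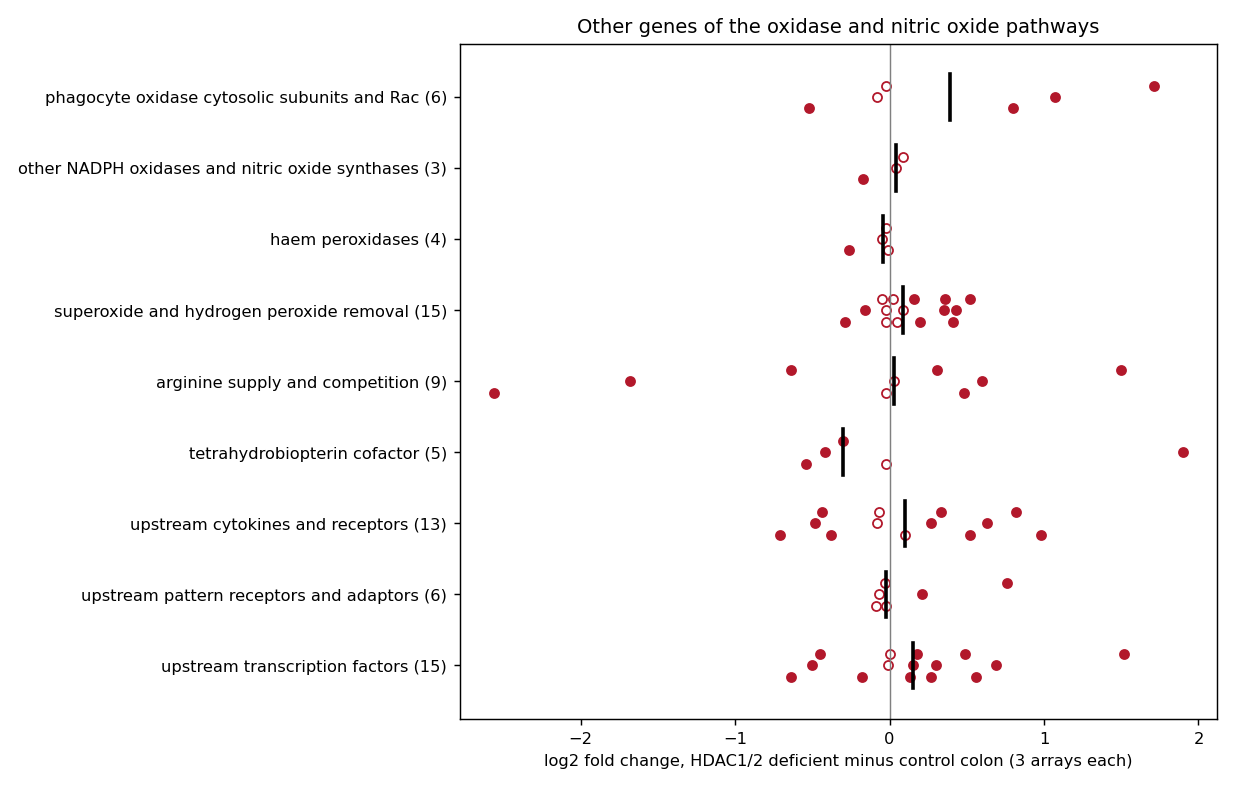
Log2 fold change, HDAC1/2 deficient minus control colon with 3 arrays each, of the other genes of the oxidase and nitric oxide pathways. Each point is 1 gene by its brightest probe set, filled where its adjusted p was under 0.05 and open otherwise, black bars are list medians and numbers in brackets are genes measured. The widest spread is in the arginine list, where Arg2 lay at -2.56 and Ddah1 at 1.50.

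Of 13 measured cytokines and receptors listed upstream of Nos2 or the Duox genes, 6 were higher and 4 lower, and not all of them are inducers of Nos2. Il1b, a cytokine of activated myeloid cells, had log2 signals of 7.66, 7.65 and 7.72 in deficient colon and 6.68, 6.90 and 6.52 in control colon (0.98, limma adjusted p = 9.59e-05), while Il1r1, its receptor, fell by 0.71, with -0.01 on its second probe set. Ifng, the interferon of T and NK cells, was dim and changed by 0.82, and Il4ra, a receptor of interleukins 4 and 13, by 0.63. The other lower genes were the receptor genes Ifngr1, Ifngr2 and Il22ra1, with changes of -0.44, -0.38 and -0.48. The T and NK cell markers rose as well, in 8 of 10 measured genes, with Gzma at 2.55, Cd3g at 1.62, Gzmb at 1.24 and Nkg7 at 1.00, and a sum of 10.94 to 11.06 in deficient colon and 10.15 to 10.25 in control colon. B and plasma cell markers rose in 9 of 10, led by Mzb1 at 1.81, Pou2af1 at 1.72, Cd79b at 1.65 and Ms4a1 at 1.48, with a sum of 15.19 to 15.29 in deficient colon and 14.51 to 14.54 in control colon. Nos2 itself, read by 1 probe set near the dim range, had no change that passed the test.

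Of 6 pattern receptors and adaptors, Tlr2, which senses bacterial lipoproteins, rose by 0.76 and Nod1, which senses peptidoglycan, by 0.21. Tlr9 and Myd88 had changes of -0.09 and -0.07 and did not pass. Of 15 transcription factors upstream, 9 were higher and 4 lower. Nfkbiz, an inducible cofactor of NF-kappaB, had log2 signals of 12.02, 11.91 and 12.07 in deficient colon and 10.52, 10.43 and 10.50 in control colon (1.52, limma adjusted p = 1.17e-06), and all 3 of its probe sets rose. Irf8, an interferon regulatory factor of myeloid and B cells, changed by 0.69 and Cdx2 by 0.56, while Jun, an AP-1 subunit, fell by 0.64.

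**Figure D4:**
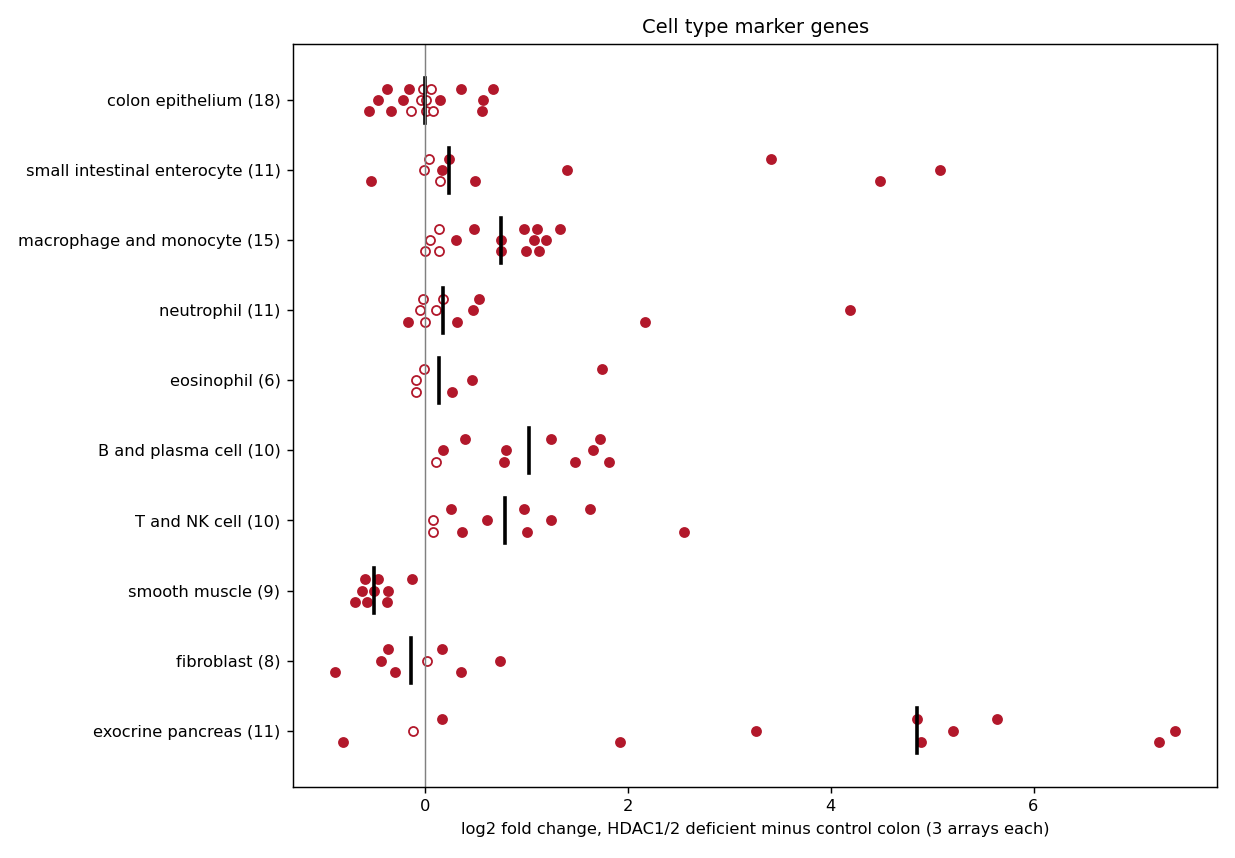
Log2 fold change, HDAC1/2 deficient minus control colon with 3 arrays each, of marker genes of cell types that the colon samples could hold. Points, filling, bars and brackets are as for the pathway genes. Macrophage, B cell and T cell medians lay at 0.75, 1.02 and 0.79, colon epithelium at -0.00 and smooth muscle at -0.51, and 8 of the 11 exocrine pancreas genes rose more than 2-fold.

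The groups differed in other ways that touch all these values. Hdac1 was lower on every deficient array, at 9.27, 9.21 and 9.32 against 10.60, 10.53 and 10.56 in control colon (limma adjusted p = 1.06e-06), while the 3 Hdac2 probe sets had changes of -0.07 to 0.05 and none passed, and the sources used here do not place them against the deleted exons. The study reported loss of both proteins in enriched epithelial cells, with patchy HDAC2 staining that remained in some crypts and villi. Exocrine pancreas genes were higher in 9 of 11 and lower in 1, with Cela2a at 7.40, Cpb1 at 7.24, Cpa1 at 5.64 and Ctrl at 5.21 and sums of 15.23 to 15.28 in deficient colon and 13.78 to 13.81 in control colon. Small intestinal enterocyte genes were higher in 7 of 11 and lower in 1, with Alpi at 5.08, Fabp6 at 4.49, Fabp1 at 3.41 and Slc10a2 at 1.40 and sums of 14.57 to 14.59 in deficient colon and 13.11 to 13.16 in control colon. The Y-linked genes Eif2s3y, Kdm5d and Uty were higher by 4.25, 3.51 and 1.39 in deficient colon on their brightest probe sets, while other probe sets of these genes had changes down to -0.13. Xist, the RNA that coats the silenced X chromosome in females, was lower on all 3 of its probe sets, with changes of -1.81 to -0.83, and on the brightest had a mean log2 signal of 12.02 in deficient colon, against 12.85 in control colon. Sex and group therefore cannot be told apart, also for the X-linked gene Cybb. The part of these differences in the members' values was not tested.

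The arrays had median log2 signals of 6.78 to 6.81 and correlated at 0.9984 to 0.9988 within deficient colon, 0.9984 to 0.9985 within control colon and 0.9824 to 0.9828 between the groups, over probe sets, which are not independent. No 2 arrays held the same values. The SD of the member probe sets was 0.024 to 0.25 in deficient colon and 0.036 to 0.24 in control colon, beside medians over all probe sets of 0.0632 in deficient and 0.0666 in control colon.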

How the data were processed

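RNA of colon from 3 HDAC1/2 deficient and 3 control mice was measured on 6 arrays. The authors background-corrected and normalized the arrays by RMA in Flexarray 1.6.1, and the deposited log2 values are 1 signal for each probe set. RMA compresses differences of dim probe sets. Of 45101 probe sets, 64 controls were left out. The remaining 45037 entered 1 limma fit (version 3.58.1, R 4.3.3, lmFit and eBayes, deficient minus control, no covariate), with Benjamini-Hochberg adjustment over all. The annotation gave 34945 of them a single symbol, 932 more than one and 9160 no symbol, and only single symbols were used as names. A gene counted once is given by its brightest probe set by mean. Promoters are RefSeq windows, matched by symbol for 9 of the 10 members.

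Named are all members and probe sets, Hdac1, Hdac2, up to 4 genes of each list with the largest absolute change, all sex-linked genes, and the 3 nearest genes to the members with the largest rise and fall. Rac1, Cybc1, Ifngr1, Ifngr2, Il22ra1, Slc7a1, Elane, Ngp, Camp and the dim markers Itgam, Cxcr2 and Mmp8 are outside this rule. All of these were chosen after their values were seen. The members and lists were chosen with earlier results of these data known, so no list was tested.

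Groups and replicate numbers came from the labels, whose source names number a mouse for each array, and the age from the study's methods. The number of arrays limits the precision. The sources used here give no scan date or batch. Whether the replicate numbers pair the arrays could not be decided by the check in the closing section, and the main fit used no pairing. Alternatives were the t-test named in the methods (unadjusted and adjusted), a repeated quantile normalization, centring on array medians, a 40th percentile filter on mean signal, a trended and robust eBayes, array weights, removal of probe sets of shared sequence, a replicate block, the mean of a gene's probe sets, and leaving out each array. Their use for the count above 2-fold was added after seeing the data. The scripts were tested on simulated data. Figures were drawn with matplotlib 3.10.9. Member proteins were not analysed here.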

Additional observations from a re-analysis of the deposited data

How the results depend on the processing

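With 3 arrays per group, precision is limited for small changes such as that of Noxo1 and for spread values such as those of Nos2, and dim probe sets such as those of Nox4 are compressed. Over the alternatives, Duoxa2 changed by 2.22 to 2.36, Cyba by 1.00 to 1.05, Cybb (1436778_at) by 1.36 to 1.47 and Noxo1 by -0.21 to -0.16, and all kept their calls. Member probe sets higher were 5 in every setting except the methods' t-test after Benjamini-Hochberg adjustment, which gave 4 by losing Cybb 1422978_at (1.07, adjusted p = 0.0518), and 1 was lower throughout. Those higher more than 2-fold were 4, and 3 with that t-test and without control replicate 2. Member genes stayed at 3 higher and 1 lower. Other pathway genes numbered 27 to 33 higher and 16 to 20 lower, and Gchfr lost its call with that t-test (-0.42, adjusted p = 0.0802).

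Among the members and named pathway genes, leaving out 1 array turned the sign only of 5 that did not pass the test with or without it, and the cause was not tested. Duoxa1 ranged from -0.098 to 0.032, Nos2 from -0.132 to 0.093 (-0.044 with array weights), Nos1 from -0.010 to 0.061, Mpo from -0.091 to 0.066 and Epx from -0.112 to 0.085. The Nox4 probe sets and the other dim genes have no value under the 40th percentile filter.

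Deviations of same-numbered arrays from their group means correlated at 0.0964, 0.064 and -0.0258 over probe sets, against -0.103 to 0.0304 for other pairs. Deficient replicates 1 and 2 correlated best with their own number and replicate 3 did not. All these values were small, so this check cannot decide whether the numbers pair the arrays. With the replicate block, 5 member probe sets were higher and 1 lower, with 29 pathway genes higher and 19 lower, and no member call changed.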
